A study of Mus musculus with 12 samples.

Results

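The cytosolic ribosomal protein genes of purified mouse brain myelin were followed over 4 ages. Members were taken by symbol, as every gene named Rpl or Rps with a number, or Rpsa, without the pseudogene rows whose symbol ends in -ps and without the Rps6k kinases. The rule found 83 of 21937 genes in the table, of which 49 encode proteins of the large subunit and 33 proteins of the small subunit. The remaining member, Rps19bp1, is no ribosomal protein but a partner of one and of the deacetylase SIRT1. Of the 83 members, 8 are paralogs, that is additional copies of a core gene (Rpl3l, Rpl7l1, Rpl10l, Rpl22l1, Rpl36al, Rpl39l, Rps27l and Rps4y2). A mean of at least 10 normalized reads over the 12 libraries was required for testing, and 78 members passed. Rpl10l, Rpl26, Rpl39l, Rpl3l and Rps23 did not. The libraries came from wild-type male c57Bl6/N mice aged P18, P75 (18 and 75 days after birth), 6mo and 24mo (6 and 24 months), with 3 libraries per age, and no animal was treated. Each library was made from the light-weight membrane fraction of the brain that is enriched for myelin, so it holds the RNA of this fraction rather than of sorted oligodendrocytes.

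A cytosolic ribosome consists of a small subunit that reads the mRNA and a large subunit that joins amino acids, and each protein is present in 1 copy in nearly all ribosomes. The mRNAs of these proteins usually begin with a 5′ terminal oligopyrimidine (TOP) tract, a cytosine at the cap followed by pyrimidines, through which their translation is controlled by the kinase mTOR. In oligodendrocytes some mRNAs, foremost that of myelin basic protein (Mbp), travel in granules to the myelin sheath and are translated there, which requires ribosomes at the sheath.

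Between 20299052 and 27214385 reads fell on genes per library. The value given throughout is the normalized read count, the reads on a gene divided by the library's DESeq size factor. All 10 myelin markers examined were present at every age. Of these markers, 8 fell between P18 and P75, and Mbp alone took 9.47% to 20.8% of the reads at P18 and 4.76% to 7.03% at P75. Markers of other cell types were present too, none of 10 neuronal, 8 astrocytic and 8 microglial genes being listed at 0. Microglial markers summed to 4084 to 4602 at P18 and to 8858 to 10957 at 24mo. Markers of oligodendrocyte precursors summed to 3415 to 3839 at P18 and to 1814 to 2033 at P75. Of these 5 genes 3 fell in this step, and much of the fall of the sum came from Gpr17, with means of 1414 and 285. Of 5 red blood cell markers 4 were listed at 0 in all libraries, and the level of the fifth, Alas2, was 362 to 472 at P18 and 29.2 to 57.7 at the later ages. In bulk RNA of such a fraction, fewer cells or sheaths of a type and less of an mRNA in each cannot be told apart. Per the study's text the 6mo libraries came from individual brains. For the other ages the sources used here do not say so, and the p-values measure the spread between these libraries.

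The sequences around the annotated transcription starts are given for members that moved most against the other members, because the TOP tract sits there. RefSeq starts (GRCm38.p6) were found for 63 of the 83 members. Windows of 30 bases are printed 5′ to 3′ on the gene's own strand, 10 bases before the start and 20 bases from the start on, with a tract in capitals where a C followed by at least 4 pyrimidines began within 5 bases of the start.
Rps12 (chr10:23787190-23787219, minus strand): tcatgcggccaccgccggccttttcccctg
Rps3a (chr3:86142649-86142678, minus strand): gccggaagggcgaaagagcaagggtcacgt
Rps6 (chr4:86857348-86857377, minus strand): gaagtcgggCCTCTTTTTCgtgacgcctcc
Rpl34 (chr3:130730318-130730347, minus strand): cttttCCTCTTCCggggacggtgctcagag
Rpl7l1 (chr17:46782637-46782666, minus strand): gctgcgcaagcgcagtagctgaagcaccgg
Rps2 (chr17:24720053-24720082, plus strand): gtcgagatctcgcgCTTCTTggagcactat
Rps19bp1 (chr15:80264287-80264316, minus strand): cggaagtagctcgccgcgtgtgggcggggc
Rps12, Rps3a and Rps6 rose above the other members after P18, whereas the last 4 fell below them. A tract within 5 bases of the annotated start was found for Rps6 among the former and for Rpl34 and Rps2 among the latter. By this rule the windows did not separate these genes. The Rps12 window also holds a run of pyrimidines, but it begins farther than 5 bases from the start and was not counted. The calls thus depend on the position of the annotated start, and a missing tract does not show that the mRNA lacks one. In the whole group, 28 of 63 members (44.4%) had a tract, compared to 21.2% of 27025 genes with RefSeq starts. Among members that lay above the other members between P18 and P75 the tract was found in 5 of 8 with a start, among those below in 7 of 13, and among the others in 15 of 37. The motif CCGGAAG, the core bound by ETS factors, was found on either strand within 250 bases before to 50 bases after the start of 25 members (39.7%), against 9.93% of all genes. The motif AAGATGGC, bound by YY1, was found in 6 members (9.52%), against 3.19%, and it can overlap CCGGAAG by the letters AAG. The motif TCTCGCGA was found in 11 members (17.5%), against 1.13%. Such matches describe letters in a window, and a missing match says nothing about a factor.

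Most ribosomal protein genes were highest at P75. The 83 members held 3.42% to 4.24% of the reads on genes at P18, 6.47% to 7.82% at P75, 3.07% to 4.48% at 6mo and 4.41% to 5.58% at 24mo. The P75 libraries lay above all the others, whereas P18 and 6mo overlapped. When the reads of Mbp were left out of the total, the share was 3.78% to 4.998% at P18 and 6.82% to 8.21% at P75. The median of the 78 members that passed was 13258, 12727 and 10358 normalized reads in P18 replicates 1, 2 and 3, compared to 18574, 18404 and 22028 at P75. It was 7572, 12146 and 12004 at 6mo and 15650, 13243 and 11721 at 24mo. P18 replicate 3 and 6mo replicate 1 thus stood below the other libraries of their age, and 6mo replicates 2 and 3 lay within the range of P18. By mean log2 level, P75 was the highest age for 70 of the 78 members, P18 for 7 and 24mo for 1, while 6mo was the lowest for 57 and P18 for 19. The order P75, 24mo, P18, 6mo was held by 35 members, the most frequent of 7 orders found. The ages were not ranked for all genes, so these counts have no share over all genes beside them. Myelin markers fell and microglial markers rose between P18 and P75 (8 of 10 and 5 of 8 called). Of the 10 neuronal markers 2 rose and 4 fell in this step, while their sum was highest at P75 with overlap with P18. The part of any of these markers in the pattern of the ribosomal protein genes was not tested.

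**Figure D1:**
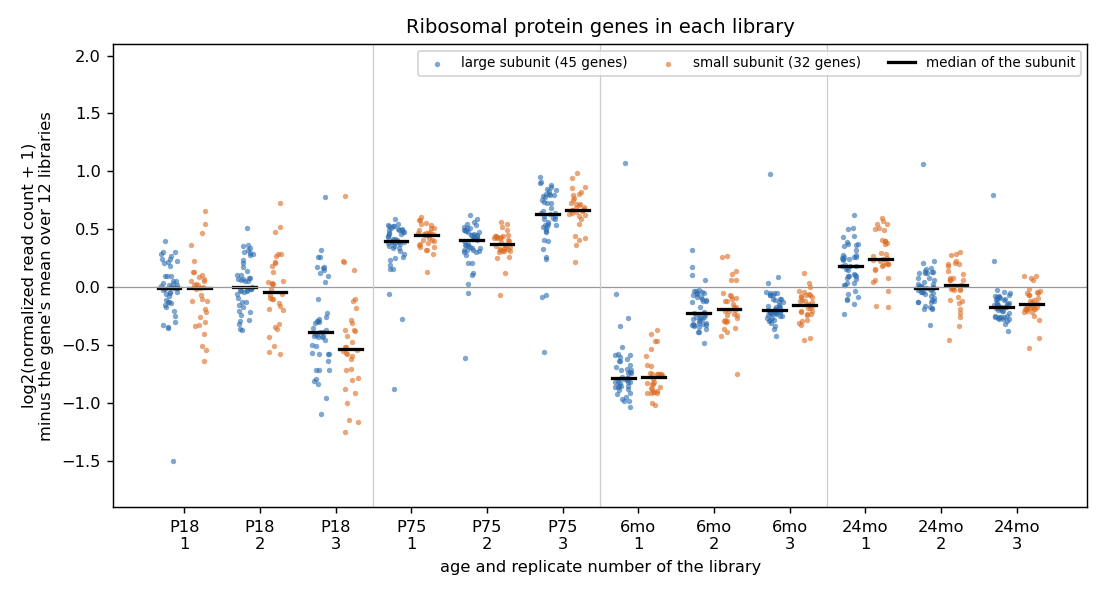
Each point is 1 ribosomal protein gene in 1 library, as log2(normalized read count + 1) minus the gene's mean over the 12 libraries (vertical axis), for 45 large-subunit and 32 small-subunit genes. Black bars are the subunit medians. Both subunits stand highest in the 3 P75 libraries, and P18 replicate 3 and 6mo replicate 1 lie below the other libraries of their age.

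Between P18 and P75 most ribosomal protein genes rose. Of the 78 members, 59 rose and 4 fell (limma on log2(normalized read count + 1), Benjamini-Hochberg adjusted over 14634 genes, false discovery rate 0.1), whereas 25.9% of all genes tested rose and 22.9% fell. The median member rose by 0.64 on the log2 scale (1.55-fold), compared to 0.02 for all genes. Rps12, a protein of the beak of the small subunit, stood at 17988, 16716 and 10745 at P18 and at 35595, 34204 and 47271 at P75. Its libraries did not overlap, and the log2 change was 1.38 ± 0.22 (SE, adjusted p = 0.000144). Rps3a, which lies near the site where mRNA leaves the small subunit, had 18763, 19490 and 12278 at P18 and 44288, 37168 and 45844 at P75. This was a log2 change of 1.36 ± 0.19 (adjusted p = 5.88e-05), again without overlap. Rps6, the substrate of the S6 kinases downstream of mTOR, went from 22771, 22534 and 16593 to 48733, 44430 and 51105, a change of 1.23 ± 0.18 (adjusted p = 6.09e-05). None of the 4 members that fell was among the highly expressed core genes. Rpl7l1, a paralog of Rpl7, had 1236, 1264 and 1226 at P18 and 848, 989 and 977 at P75 and fell by 0.41 ± 0.08 (adjusted p = 0.00121). Rpl34 fell by 0.53 ± 0.24 (adjusted p = 0.0889), with only 19 to 49 reads per library. Rps4y2 fell by 0.32 ± 0.14 (adjusted p = 0.0856), and Rps19bp1 fell by 0.23 ± 0.10 (adjusted p = 0.0726). The calls of Rpl34, Rps4y2 and Rps19bp1 did not hold without P18 replicate 2 or 3 or P75 replicate 1 or 3, nor with every library scaled to the same total, and Rps4y2 overlapped between the ages. The 15 members without a call included Rps2, Rpsa, Rpl6 and Rpl7a.

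From P75 to 6mo almost the whole group fell. Of the 78 members, 74 fell and 1 rose, compared to 29.4% and 31.2% of all genes. The median member changed by −0.88 (1.84-fold lower), against 0.01 for all genes. Rps27l, a paralog of Rps27 that is induced by p53, stood at 852, 903 and 1130 at P75 and at 330, 398 and 494 at 6mo. It had the largest fall, by 1.25 ± 0.15 (adjusted p = 5.14e-06). Rpl35, which sits where the nascent peptide leaves the ribosome, went from 14802, 15626 and 18416 to 5235, 7926 and 8341, and the change was −1.21 ± 0.17 (adjusted p = 2.15e-05). Rpl38, known for its role in the translation of Hox mRNAs, went from 19392, 19634 and 25066 to 6803, 10844 and 11313, a change of −1.17 ± 0.18 (adjusted p = 5.32e-05). In all 3 genes the ages did not overlap, and 6mo replicate 1 was the lowest library. Rpl7l1, Rpl30 and Rpl34 passed in neither direction. Deviations of same-numbered P75 and 6mo libraries from their age means correlated weakly (r = 0.101 to 0.187). Between differently numbered libraries r reached 0.225 (P18 replicate 3 and P75 replicate 2). A fit with the replicate number as a block on the 6 libraries of P75 and 6mo called 76 members.

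Between 6mo and 24mo the group rose in part. Of the 78 members, 41 rose and 0 fell, compared to 16.6% and 12.7% of all genes. The same fit gave 51 members with an unadjusted p under 0.05. The median member rose by 0.40 (1.32-fold), against 0.03 for all genes. Rpl35a, a gene mutated in Diamond-Blackfan anemia, had 9148, 13724 and 14188 at 6mo and 23527, 19342 and 16017 at 24mo (log2 change 0.68 ± 0.18, adjusted p = 0.0169). Rps21, a small-subunit protein, went from 8947, 13697 and 15519 to 24420, 19262 and 16051 (0.66 ± 0.20, adjusted p = 0.0331). Rps12 had 13435, 21554 and 23284 at 6mo and 35942, 29368 and 24883 at 24mo (0.65 ± 0.22, adjusted p = 0.0484). The libraries of the 2 ages did not overlap in these genes, but 6mo replicate 1 was far below the other 2 of its age in each of them. Without 6mo replicate 1 only 2 members were called, without 24mo replicate 1 only 4 and without 24mo replicate 2 only 8. At a false discovery rate of 0.05 the count was 15. The median change stayed positive, between 0.22 and 0.51, whichever library was left out.

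From P18 to 24mo the members parted, and 25 rose while 14 fell. Among all genes 34.7% rose and 34.3% fell, and the shares of the members (32.1% and 17.9%) did not exceed these. The median member differed by 0.15, against −0.01 for all genes. This comparison shares its P18 and its 24mo libraries with the first and the third. Rps3a had 41451, 35290 and 30757 at 24mo, all above the P18 libraries (log2 change 1.11 ± 0.19, adjusted p = 0.000116). Rps12 was likewise higher at 24mo than at P18 (1.01 ± 0.22, adjusted p = 0.000845). In the other direction stood Rps2, a protein of the mRNA channel, with 23178, 26173 and 18387 at P18 and 14108, 12543 and 11674 at 24mo. It fell by 0.81 ± 0.16 (adjusted p = 0.000259) without overlap. Rps4y2 fell by 0.82 ± 0.14 (adjusted p = 0.000116), and Rps19bp1 fell by 0.77 ± 0.10 (adjusted p = 4.46e-06), from 823, 844 and 880 to 439, 506 and 550.

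**Figure D2:**
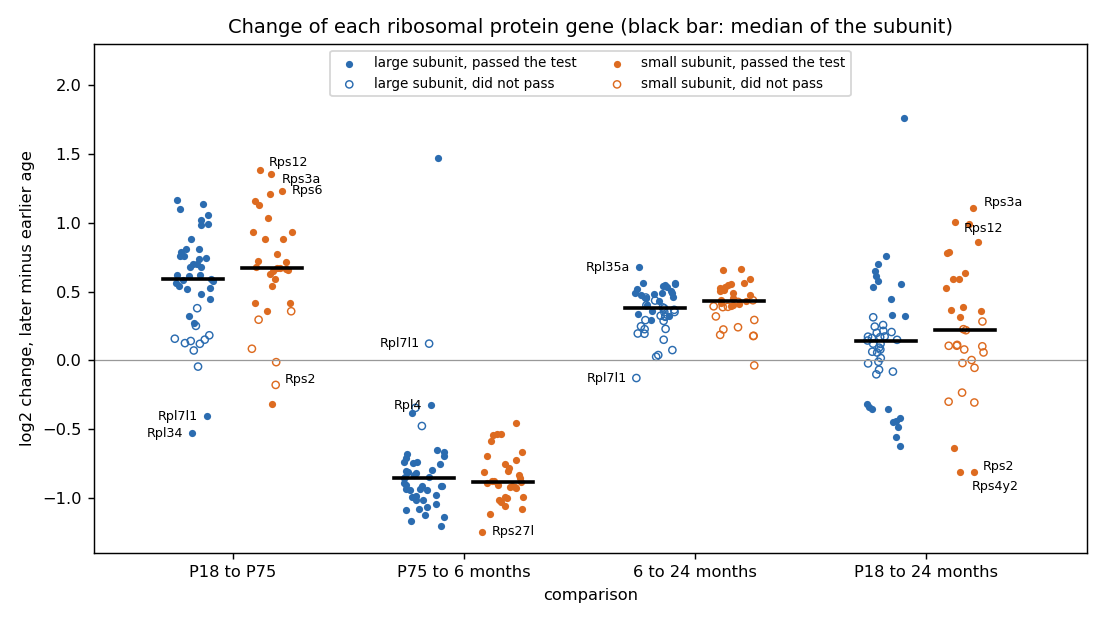
Log2 change of each member that passed the filter (vertical axis, later minus earlier age) in the 4 comparisons, for the large and small subunit without Rps19bp1. Filled points passed the test at a false discovery rate of 0.1, open points did not, and black bars are subunit medians. The medians stand at 0.59 and 0.67 between P18 and P75, at −0.86 and −0.88 between P75 and 6mo, at 0.38 and 0.43 between 6mo and 24mo and at 0.14 and 0.22 between P18 and 24mo.

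Both subunits had the same order of steps, a rise, a fall and a rise. Between P18 and P75, 33 of 45 large-subunit and 26 of 32 small-subunit members rose, with medians of 0.59 and 0.67. Between P75 and 6mo, 41 of 45 and 32 of 32 fell, with medians of −0.86 and −0.88. Between 6mo and 24mo, 22 of 45 and 19 of 32 rose, with medians of 0.38 and 0.43. Large minus small, the difference of medians was −0.08, 0.03 and −0.05 in the 3 consecutive steps. For its spread, each gene's mean was subtracted and large minus small was taken in each library. The SD of these single-library values was 0.07 at P18, 0.04 at P75, 0.02 at 6mo and 0.02 at 24mo, with P18 replicate 3 at 0.14. The spread of a change between ages was not estimated. The difference of medians turned to −0.02 in the step from P75 to 6mo when members with a mean under 100 were left out. From P18 to 24mo, 11 large-subunit members rose and 10 fell (24.4% and 22.2%). Of the small-subunit members 14 rose and 3 fell (43.8% and 9.38%), where 34.7% of all genes rose and 34.3% fell. The reads on large-subunit genes were 1.24, 1.23 and 1.35 times those on small-subunit genes at P18 and 1.07 to 1.19 times at the later ages, so that P18 lay above the other ages without overlap. P18 replicate 3 had the highest ratio. These summaries over members were not tested.

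To find members that left the common course, the median log2 value of the 78 members was subtracted in each library and the same limma fit was run on all genes. Between P18 and P75, 9 members lay above and 15 below the median member, where 1.39% and 66.9% of all genes did. Between P75 and 6mo, 8 lay above and 0 below, compared to 80.7% and 0.704% of all genes. Between 6mo and 24mo no member was called in either direction, compared to 0.724% and 19.4% of all genes, with 1 member at an unadjusted p under 0.05 and 0 calls by edgeR and 1 by DESeq2. From P18 to 24mo, 14 lay above and 15 below, compared to 21.6% and 27.7%. Because most genes differ from the ribosomal protein genes, the adjusted threshold was lenient here and admitted unadjusted p up to 0.0683 in the first step and 0.0814 in the second. At an unadjusted p under 0.01 the counts were 3 above and 9 below in the first step, 4 above and 0 below in the second, and 9 above and 8 below from P18 to 24mo. With quantile normalization the second step gave 5 above and 3 below. Without 6mo replicate 1 the first step gave 37 calls in place of 24. The second step gave 4 calls in place of 8 without P75 replicate 2 or 3 and 5 without 6mo replicate 2. From P18 to 24mo there were 19 calls in place of 29 without P18 replicate 3, 17 without 24mo replicate 1 and 18 without 24mo replicate 2.

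The 3 members farthest above the common course between P18 and P75 encode small-subunit proteins. Relative to the median member, Rps12 gained 0.68 ± 0.20 between P18 and P75 (adjusted p = 0.00229), Rps3a 0.65 ± 0.20 (adjusted p = 0.00289) and Rps6 0.53 ± 0.20 (adjusted p = 0.0141). At 24mo the same genes stood 0.85, 0.95 and 0.84 above P18 relative to the median member (adjusted p = 0.000196, 1.85e-05 and 0.00016). Rpl13a, Rpl14, Rpl35a, Rps24, Rps29 and Rps3 were the other members above in the first step. Of these 9 members, 6 encode small-subunit and 3 large-subunit proteins, out of 32 and 45 that passed the filter. Among the 15 members below, 4 encode small-subunit and 10 large-subunit proteins. A difference between the subunits was not tested here.

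The members below the common course between P18 and P75 included all but 1 of the 5 paralogs that passed. In the same fit 66.9% of all genes tested lay below, so this count does not set the paralogs apart from other genes. Relative to the median member and between P18 and P75, Rpl7l1 changed by −1.11 ± 0.24 (adjusted p = 5.05e-05), Rps4y2 by −1.02 ± 0.25 (adjusted p = 0.000231), Rps27l by −0.62 ± 0.25 (adjusted p = 0.0237) and Rpl36al by −0.52 ± 0.23 (adjusted p = 0.041). Rps19bp1 changed by −0.93 ± 0.25 (adjusted p = 0.000729). Among core genes, Rps2 changed by −0.88 ± 0.21 (adjusted p = 0.000158) and Rpl34 by −1.23 ± 0.36 (adjusted p = 0.00191). The other core genes below were Rpl4, Rpl6, Rpl7a, Rpl10a, Rpl15, Rpl18, Rpl29 and Rps27. Of these, Rpl4 rose and the others did not pass the test of change. Rpl4, which lines the peptide tunnel, had 18693, 19571 and 15566 at P18 and 22603, 20008 and 22007 at P75.

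Some members fell less than the others after P75. Relative to the median member, Rpl7l1 gained 1.04 ± 0.24 (adjusted p = 5.42e-05) from P75 to 6mo and Rpl4 0.60 ± 0.21 (adjusted p = 0.00604). Rpl7l1 itself was nearly level over these ages, with 986, 983 and 1088 at 6mo, and overlapped P75. Rpl3, which sits at the peptidyl transferase center, gained 0.54 ± 0.20 (adjusted p = 0.0118). Rps3a, Rps4x, Rps4y2 and Rpsa were called as well.

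**Figure D3:**
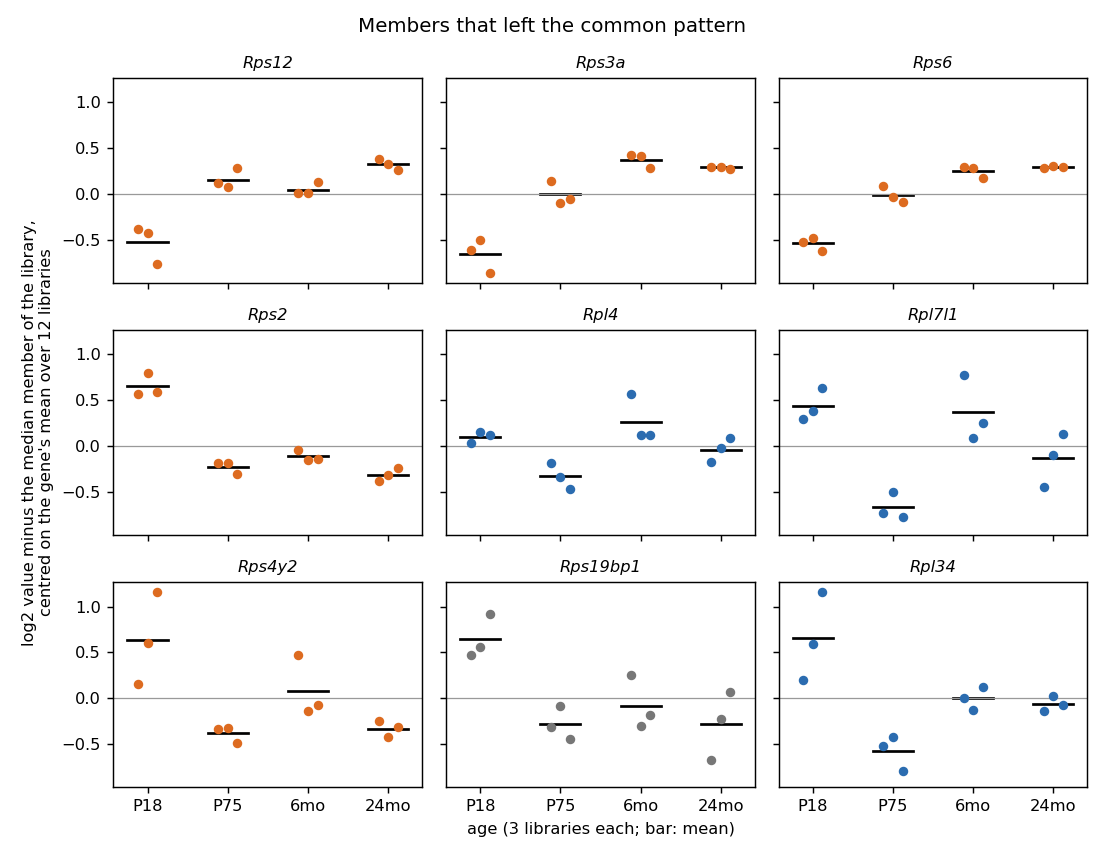
Each panel shows 1 gene that left the common course: log2(normalized read count + 1) minus the median member of the same library, centred on the gene's mean over the 12 libraries (vertical axis), by age, with 1 point per library and a bar at the mean. Rps12, Rps3a and Rps6 are lowest at P18, Rps2 is highest at P18, Rpl7l1 is lowest at P75, and Rpl34 is highest at P18. Blue marks the large subunit, orange the small subunit and grey Rps19bp1.

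The members above and below overlapped in the GC content of their transcripts. Between P18 and P75 it was 46.1% to 58.2% for the members above, 43.1% to 59.1% for those below and 41.3% to 60.9% for the others. The median coding length was 681 bases above, 612 bases below and 453 bases for the others. The median level was 30872 normalized reads above and 6020 below, compared to 14364 for the others. These values describe chosen genes and were not tested.

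Groups of members that share a place in the ribosome or a known disease were counted as well, and their counts are read against those of all 78 members (59 rose in the first step, 74 fell in the second and 41 rose in the third). Of the genes that line the peptide tunnel and its exit, 8 of 9 passed, and all 8 rose between P18 and P75 and fell between P75 and 6mo. Among the genes of the mRNA channel and decoding site, 7 of 8 passed, of which 5 rose and then all 7 fell. Rps3, at the entry of the mRNA channel, rose by 1.21 in the first step on the log2 scale (adjusted p = 0.000244), whereas Rps2 of the same site was among the members below the common course. Rpl5 and Rpl11, which together with the 5S rRNA bind the p53 ligase MDM2, stood at 13745 and 16165 on average at P18 and at 28226 and 27036 at P75. Rpl5 rose by 1.05 ± 0.16 (adjusted p = 0.000112) and Rpl11 rose by 0.75 ± 0.16 (adjusted p = 0.00177). Of 18 genes mutated in Diamond-Blackfan anemia, an inherited failure of red cell production, 17 passed, and 13 rose and 0 fell in the first step, 17 fell in the second and 13 rose in the third. In the first step this was near the share of all members that rose (75.6%), and the calls of the third step depend on single libraries as given above. The 4 X-linked members, Rpl10, Rpl36a, Rpl39 and Rps4x, all rose and then all fell.

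Paralogs with a measurable parent gene were below it, by widely different factors, and levels are compared per kilobase of transcript. Rpl22l1 reached 4021 normalized reads per kilobase and Rpl22 12413. Rpl22l1 was 27.9% to 40.3% of Rpl22 at P18, 32.0% to 35.4% at P75, 24.1% to 34.5% at 6mo and 33.3% to 34.5% at 24mo, with overlap at all ages. Both genes rose in the first step and fell in the second. Rpl36al, an autosomal copy of the X-linked Rpl36a, was 56.6% to 76.5% of its parent at P18, compared to 38.2% to 46.2% at P75, 40.9% to 47.9% at 6mo and 31.9% to 43.5% at 24mo. The P18 libraries stood above all later ones. Rpl36al had 4773, 4712 and 4362 at P18 and 4883, 5245 and 5589 at P75 and did not pass the test (log2 change 0.18 ± 0.11, adjusted p = 0.189), while Rpl36a went from 7367, 7640 and 5234 to 10792, 10420 and 13427. Rps4y2, an intronless autosomal relative of Rps4x, was 3.55% to 7.90% of Rps4x at P18 and 2.19% to 3.19% at the later ages. Rpl7l1 was 1.77% to 2.46% of Rpl7 at P18 and 1.04% to 1.25% at P75. The size of such ratios depends on the length used. Over the 12 libraries Rpl7l1 had 396 normalized reads per kilobase of transcript but 1399 per kilobase of coding sequence, against 24946 for Rpl7 by both lengths. Sequence shared by a paralog and its parent or pseudogenes can shift reads between them, so these ratios are uncertain to that extent.

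Of the paralogs with restricted expression, Rpl3l, known from muscle, had 2 to 17 reads per library, a mean of 9.89 normalized reads against 20833 for Rpl3. Rpl39l had 0 to 9 reads, a mean of 4.23 against 11316 for Rpl39. Rpl10l, known from testis, was listed at 0 in all 12 libraries, which allows up to 3 reads in each. Rps27l had 1243 normalized reads per kilobase, and no comparison with its parent Rps27 is made, because Rps27 had only 27 to 60 reads per library.

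**Figure D4:**
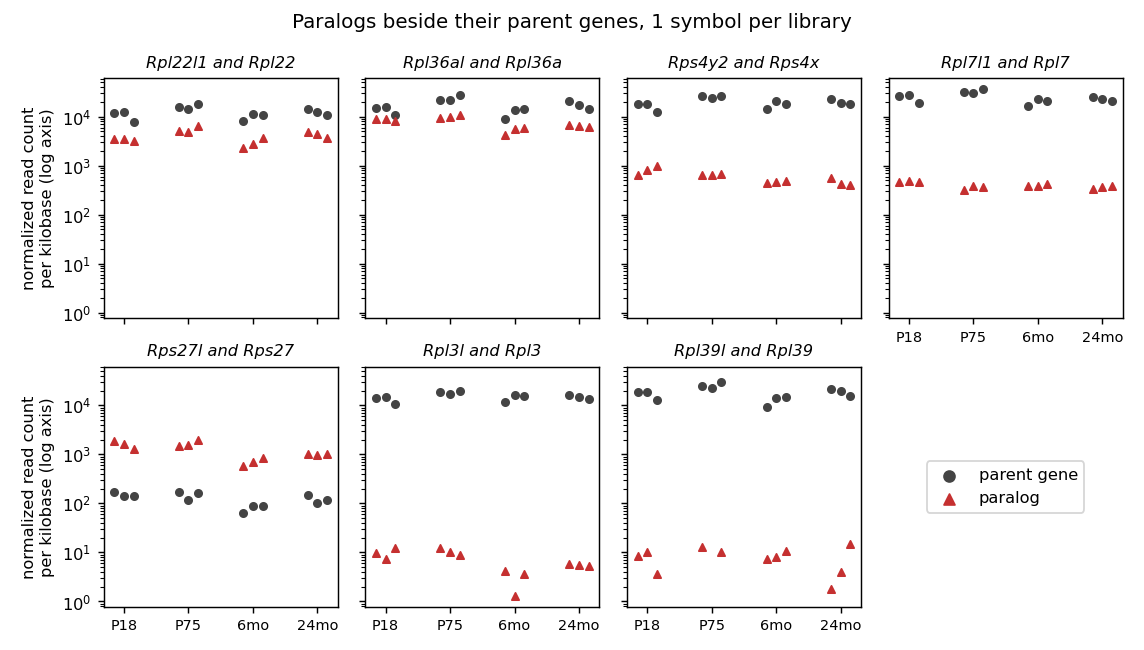
Normalized read count per kilobase (vertical log axis) of 7 paralogs (red triangles) and their parent genes (grey circles) at each age, 1 symbol per library. The paralogs lie below their parents in all panels but that of Rps27l, whose parent Rps27 had only 27 to 60 reads per library, and Rpl36al is closest to its parent at P18. Rpl39l had 0 reads in 1 P75 library, which is not drawn, and Rpl10l is not shown because it was listed at 0 throughout.

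Rps27 belongs to 6 core genes that were nearly absent from the table although they encode proteins of the ribosome. Rpl26 was listed at 0 in all 12 libraries. Rps23, a protein of the decoding site, had 0 to 6 reads per library, Rpl34 19 to 49, Rpl30 21 to 41 and Rps27 27 to 60. The other 68 core members had means of 5138 to 43092 normalized reads, and no core member lay between the groups. The range of sequence shared with the rest of the genome overlapped between the groups. A median of 72.9% of the 6 genes' 50-base stretches had a second exact copy in the genome (NCBIM37), with 62.8% for Rpl30 and 99.7% for Rps27, compared to 0% to 98.1% with a median of 70.6% for the others. Rps12 had a copy for 98.1% of its stretches and a mean of 25915. The table lists such a copy mainly for the 6 genes. A row named as a predicted gene or pseudogene matched at least 40% of the stretches for 5 of the 6 genes but for 1 of the other 68. Of the 7 listed copies of the 6 genes, 4 were listed at 0 and the highest, Gm5148 beside Rps23, had a mean of 78.6. The cause of the low values was not tested. Whether the values of these 6 genes reflect the level of their mRNAs is not known, and they are not read as such. The changes of Rpl34 and Rps27 given above rest on these few reads.

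**Figure D5:**
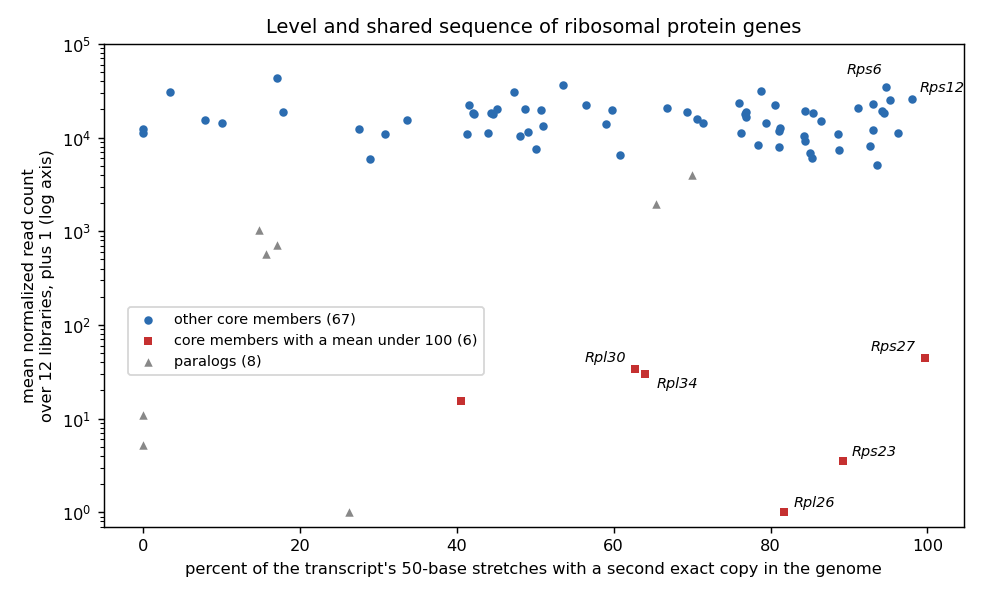
Mean normalized read count over 12 libraries plus 1 (vertical log axis) against the percentage of each transcript's 50-base stretches that occur a second time in the genome (horizontal axis), for 67 core members with a transcript model (blue), 6 core members with a mean under 100 (red) and 8 paralogs (grey). The 6 genes lie under 100, and all blue genes have means of 5138 or more.

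Per kilobase of transcript, Rps29 was highest with 59487 normalized reads, followed by Rps12 with 50127, Rps21 with 45379, Rpl38 with 41252 and Rps6 with 40015. Of these 5, 4 encode small-subunit proteins. Among the lowest of the members that passed were Rpl7l1 with 396, Rps27 with 126, Rpl34 with 60.9 and Rpl30 with 57.5. Rps27, Rpl34 and Rpl30 are among the core genes with few reads, so their place in this order has the same limit. Rps29 had 17276, 16170 and 11796 normalized reads at P18 and 31454, 29484 and 39545 at P75. It rose by 1.16 ± 0.21 (adjusted p = 0.000474). Lengths are those of the transcript with the longest coding sequence, and some gene models are much longer than the mRNA, so the order depends on the model.

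Ribosomal proteins whose symbols do not follow the rule rose and fell at the same steps, with exceptions. Of 6 such genes, 4 rose between P18 and P75 (among them Rplp1, Rplp2 and Fau), all 6 fell between P75 and 6mo and 3 rose between 6mo and 24mo (among them Rplp2 and Fau). Rplp1, a protein of the stalk that recruits elongation factors, went from 24922, 26679 and 18305 at P18 to 39604, 33678 and 46546 at P75. This was a rise of 0.78 ± 0.20 (adjusted p = 0.0054). Rplp0, the base of the same stalk, had 15665, 17861 and 11589 at P18 and 14126, 12757 and 13442 at P75 and did not pass (−0.14 ± 0.16, adjusted p = 0.511). From P18 to 24mo Rplp1 rose by 0.69 and Rplp0 fell by 0.45 on the log2 scale (adjusted p = 0.00707 and 0.0218), the ages overlapping for Rplp0. Gnb2l1, which encodes the scaffold RACK1 of the small subunit, changed by 0.16 ± 0.10 in the first step (adjusted p = 0.191).

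Other genes of the translation machinery are given beside the shares of all genes, 25.9% rising and 22.9% falling between P18 and P75 and 31.2% rising and 29.4% falling between P75 and 6mo. Of 13 other TOP mRNAs that passed, such as elongation and initiation factors, 5 rose and 1 fell between P18 and P75, and 2 rose and 7 fell between P75 and 6mo. Eef1b2, an elongation factor subunit, rose by 0.88 (adjusted p = 0.000793), and Pabpc1, the poly(A) binding protein, fell by 0.34 (adjusted p = 0.0159) in the first step. Of 29 ribosome biogenesis factors, 7 rose and 7 fell in the first step and 8 rose and 9 fell in the second, with medians of 0.02 and 0.08, which was near the shares of all genes. Of 12 genes of mTOR signaling and TOP regulation, 2 rose and 2 fell in the first step and 4 rose and 3 fell in the second. Mtor rose by 0.51 between P18 and P75 (adjusted p = 0.000872). In the same step Eif4ebp2, a repressor of cap-dependent translation, fell by 0.92 (adjusted p = 0.000527), and it then rose by 1.36 from P75 to 6mo (adjusted p = 9.44e-06). The level of Eif4ebp2 was low, with means of 72.2 normalized reads at P18, 37.7 at P75 and 97.5 at 6mo.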

How the data were processed

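The authors aligned reads to mm9 with TopHat (per the labels TopHat2 2.0.8), counted them per gene with HTSeq 0.5.4p1 and deposited size factor normalized counts (DESeq), a signal with 1 value per gene and library. Strandedness, read length and annotation are not given in the sources used here. Dividing by the worth of 1 read gave whole reads within 0.1 for 100% of the values above 0 and up to 100 reads in each library. Higher values, among them those of most ribosomal protein genes, were not part of this check. Limma 3.58.1 (R 4.3.3) was fitted to log2(normalized read count + 1) of the 14634 genes whose mean reached 10, as 1 model of 12 libraries with age as the factor, and p-values were Benjamini-Hochberg adjusted over all of them at 0.1. A fold change on this scale understates the change of low genes. edgeR 4.0.16 and DESeq2 1.42.0 on the recovered reads, other pseudocounts, filters, scalings and left-out libraries were alternatives, and the fits were tested on simulated data. Lengths came from GENCODE vM1 on NCBIM37 (82 of 83 members matched; Rpl41 had no model). Columns of the authors' own comparisons were not used.

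The members and lists were chosen with earlier results of these data known. Named are the 3 largest rises and falls among calls per comparison, the 3 farthest above and below the median member, the 5 highest and lowest per kilobase, all paralogs, low members, 5S and X-linked members and, in other lists, the largest rise and fall. Some genes that meet these rules are not reported here. A few others are named after their values were seen. Deviations of same-numbered P75 and 6mo libraries from their age means correlated across genes (r = 0.101 to 0.187 in 3 pairs), those of other ages did not in every pair. Correlations of this size also occurred between differently numbered libraries (r = 0.225 for P18 replicate 3 and P75 replicate 2). Sequences are from RefSeq (GRCm38.p6), and Rps3a was matched through its synonym Rps3a1.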

Additional observations from a re-analysis of the deposited data

Results flagged for a closer look

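Reads were counted on both ribosomal pseudogene rows that the symbol rule leaves out. Rps19-ps3 (chr4:147195886-147196335, NCBIM37) had 27 to 102 reads per library and a mean of 55.6 normalized reads over the 12 libraries, above the 3 reads that a count of 0 allows. Its means were 78.4 ± 25.2 at P18, 84.3 ± 10.7 at P75, 25.6 ± 3.63 at 6mo and 34.0 ± 4.15 at 24mo (SD, n = 3), so the ages P18 and P75 stood above the later ages. Rpl34-ps1 (chr6:71074583-71074994) had 0 to 4 reads and a mean of 1.14 normalized reads, while its parent Rpl34 had 29.3. Reads shared with the parent genes cannot be told apart in these counts. No group of libraries was large enough for a search for outlying libraries.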

How the results depend on the processing

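The direction of the median member was kept in all 4 comparisons under every setting run. It ranged from 0.49 to 0.76 between P18 and P75, from −0.98 to −0.66 between P75 and 6mo, from 0.22 to 0.51 between 6mo and 24mo and from 0.03 to 0.22 between P18 and 24mo. Scaling every library to the same total raised the median of all genes between P18 and P75 from 0.02 to 0.14 and quantile normalization lowered it between P18 and 24mo from −0.01 to −0.12, so changes there are read relative to these values. With each library left out in turn, the members changed numbered 54 to 64, 70 to 76, 2 to 56 and 32 to 43 in the order of the 4 comparisons, and the members off the common course 16 to 37, 4 to 9, 0 to 1 and 17 to 34. At a false discovery rate of 0.05, 15 members changed between 6mo and 24mo and 4 left the common course between P75 and 6mo. Between 6mo and 24mo 1 member left the common course under DESeq2 and with a mean over 100. The difference of large and small subunit was −0.0344 between P18 and P75 under quantile normalization and turned to −0.0158 between P75 and 6mo with a mean over 100. With each library left out it ranged from −0.09 to −0.07, −0.01 to 0.04, −0.05 to −0.03 and −0.12 to −0.02. With the replicate block in the fit of all libraries 62, 75, 33 and 35 members changed and 23, 6, 0 and 23 left the common course, and the block on the P75 and 6mo libraries alone gave 76 and 8. Of 2141 recomputed values of named members, 94 lost their call and 0 turned. Calls that the replicate block changed are among them, such as the fall of Rps4y2 between P18 and P75 (adjusted p = 0.105). The cause of these differences was not tested. Depth did not limit the core members, but Rpl30, Rpl34 and Rps27 rest on 19 to 60 reads per library.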

Other observations

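The mitochondrial ribosomal proteins, which build the separate ribosome of the mitochondrion, are given beside the cytosolic ones. All 76 genes of this family passed the filter. Between P18 and P75, 4 rose and 23 fell, with a median log2 change of −0.10, where 25.9% of all genes rose and 22.9% fell. Between P75 and 6mo 3 rose and 66 fell, with a median of −0.54, where 31.2% and 29.4% of all genes did. Between 6mo and 24mo 24 rose and 0 fell, where 16.6% and 12.7% of all genes did. From P18 to 24mo 69 fell and 1 rose (Mrpl24), with a median of −0.51, where 34.3% of all genes fell and 34.7% rose. Mrps21 fell by 1.23 from P75 to 6mo (limma, adjusted p = 1.09e-06), Mrpl33 rose by 0.67 from 6mo to 24mo (adjusted p = 0.00601) and Mrpl34 fell by 0.96 from P18 to 24mo (adjusted p = 4.95e-05).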
